A study of Homo sapiens with 12 samples.

Results

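The nuclear-encoded subunits of the respiratory chain were followed by RNA sequencing in A375 cells, a human melanoma line with an activating BRAF mutation, through exposure to a pair of MAPK pathway inhibitors and their removal. Members were chosen by gene symbol: the NDUF genes with the letters A, B, C, S or V and a number, NDUFAB1, the 4 SDH genes, the UQCR genes, CYC1, COX4 to COX8, and the ATP5 genes of the catalytic head, c-ring, membrane part, peripheral stalk and inhibitor. Of 44659 rows in the count table, 89 matched. After setting aside 3 rows that name no subunit of their own (a read-through row, a pseudogene and a divergent transcript), 86 subunit genes remained, with 37 in complex I, 4 in complex II, 10 in complex III, 18 in complex IV and 17 in complex V. Rows with a numbered suffix, 19 in all and belonging to 8 of the subunit genes, were not counted as members.

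All 12 libraries came from cytoplasmic RNA of A375 cells and were depleted of ribosomal RNA, and each of the 4 groups had 3 libraries. Control cells (CC) were kept with DMSO, the drug solvent, over 72 h. The MAPKi-treated cells (TC) received 500 nM vemurafenib, which blocks mutant BRAF, together with 500 nM cobimetinib, which blocks MEK, for 72 h. The persister cells (PC) had the same treatment and then 2 days in drug-free medium, and the recovered cells (RC) had it and then 9 days in drug-free medium, with passaging where needed. No solvent control was labelled for the 2 later harvests, so time without drug cannot be told apart from harvest day and passaging in PC and RC. The line is a single cancer cell line, and the labels do not say whether libraries of a group came from separate cultures, so p-values measure the spread between these libraries only.

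Respiratory chain complexes sit in the inner mitochondrial membrane. Complex I takes electrons from NADH and complex II takes them from succinate, complex III passes them on to cytochrome c, complex IV hands them to oxygen, and complex V uses the resulting proton gradient to make ATP. Complexes I, III, IV and V each have a core that does the chemistry and accessory subunits that build and steady it. All 4 genes of complex II were grouped as core. Complex II is encoded wholly in the nucleus, whereas the others also contain subunits encoded by mitochondrial DNA, which had no rows here and were not analysed. In complex IV these mitochondrial subunits hold the catalytic centres, so all nuclear COX genes were grouped as accessory subunits or as isoforms of them.

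The 5′ ends of these genes are known for a small set of short control elements, and the windows of 7 members are shown because they carry such letters and belong to genes that moved. Windows were taken from RefSeq on GRCh38.p14, from 250 bases before to 50 bases after the gene start, and 68 of the 86 members had one. Each is the deepest called fall in PC of its complex, or one of the 2 steepest called rises, among members with a mean of 5 CPM or more (read counts scaled to a common library total) whose window held at least 1 of the searched motifs. Capitals mark the motifs CGCATGCG (NRF1), CCGGAAG (ETS family), AAGATGGC (YY1), AAGGTCA (ERR) and CACGTG (E-box), read on both strands, with no overlap between the marked motifs. From top to bottom the members are the complex I iron-sulphur subunit NDUFS7 (chr19:1383657-1383956, plus strand), the complex II membrane anchor SDHD (chr11:112086623-112086922, plus strand), the complex III subunit UQCRC1 (chr3:48609597-48609896, minus strand), the complex IV subunit COX6A1 (chr12:120437863-120438162, plus strand), the ATP synthase gamma subunit ATP5F1C (chr10:7787927-7788226, plus strand), and the small complex III subunits UQCR11 (chr19:1605413-1605712, minus strand) and UQCRQ (chr5:132866392-132866691, plus strand).
NDUFS7: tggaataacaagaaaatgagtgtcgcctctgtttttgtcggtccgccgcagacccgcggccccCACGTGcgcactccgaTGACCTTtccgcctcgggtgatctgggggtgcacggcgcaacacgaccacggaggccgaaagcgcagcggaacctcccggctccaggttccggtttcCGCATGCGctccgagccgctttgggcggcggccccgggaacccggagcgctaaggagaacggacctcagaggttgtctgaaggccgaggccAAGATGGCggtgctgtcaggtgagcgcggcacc
SDHD: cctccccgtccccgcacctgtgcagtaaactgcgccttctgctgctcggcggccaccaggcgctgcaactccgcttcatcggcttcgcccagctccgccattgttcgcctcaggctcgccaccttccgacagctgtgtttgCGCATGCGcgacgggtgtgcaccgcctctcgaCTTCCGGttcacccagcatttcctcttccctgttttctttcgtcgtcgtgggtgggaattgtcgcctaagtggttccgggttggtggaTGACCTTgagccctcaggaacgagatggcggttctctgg
UQCRC1: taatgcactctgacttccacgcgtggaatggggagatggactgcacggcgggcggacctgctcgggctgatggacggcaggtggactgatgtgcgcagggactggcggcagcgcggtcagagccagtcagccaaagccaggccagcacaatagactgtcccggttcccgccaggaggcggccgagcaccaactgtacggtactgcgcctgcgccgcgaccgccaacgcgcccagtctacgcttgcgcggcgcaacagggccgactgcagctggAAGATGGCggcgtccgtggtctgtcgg
COX6A1: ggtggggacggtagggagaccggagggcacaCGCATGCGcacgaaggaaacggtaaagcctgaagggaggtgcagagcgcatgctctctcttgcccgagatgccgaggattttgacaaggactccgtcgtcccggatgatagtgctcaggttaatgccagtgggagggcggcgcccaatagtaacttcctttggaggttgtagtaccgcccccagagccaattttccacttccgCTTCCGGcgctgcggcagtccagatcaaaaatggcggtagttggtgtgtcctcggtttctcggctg
ATP5F1C: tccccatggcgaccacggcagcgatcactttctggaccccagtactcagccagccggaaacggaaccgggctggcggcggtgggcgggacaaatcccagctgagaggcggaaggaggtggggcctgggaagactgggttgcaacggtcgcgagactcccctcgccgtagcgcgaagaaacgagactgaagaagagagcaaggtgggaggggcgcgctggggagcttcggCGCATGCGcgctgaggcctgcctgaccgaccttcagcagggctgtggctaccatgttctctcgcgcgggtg
UQCR11: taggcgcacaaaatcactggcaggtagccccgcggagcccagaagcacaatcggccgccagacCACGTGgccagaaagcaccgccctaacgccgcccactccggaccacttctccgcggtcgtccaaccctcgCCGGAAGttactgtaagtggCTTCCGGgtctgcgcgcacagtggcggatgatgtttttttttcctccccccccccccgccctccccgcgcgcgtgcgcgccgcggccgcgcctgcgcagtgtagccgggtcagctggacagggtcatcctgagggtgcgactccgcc
UQCRQ: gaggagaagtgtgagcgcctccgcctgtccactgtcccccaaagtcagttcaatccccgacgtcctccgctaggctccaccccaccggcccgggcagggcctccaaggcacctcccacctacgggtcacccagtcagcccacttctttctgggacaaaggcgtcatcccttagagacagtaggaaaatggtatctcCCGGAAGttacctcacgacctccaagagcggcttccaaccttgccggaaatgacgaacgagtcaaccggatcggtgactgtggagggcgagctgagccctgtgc

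In the NDUFS7 window 4 of the 5 motifs were found, and the YY1 letters lay within the first 50 transcribed bases, as they did in UQCRC1. The NRF1 letters occurred in 10 of the 68 member windows (14.7%), against 2.19% of all 27305 windows and 3.78% of the 11587 windows of tested genes. The YY1 letters occurred in 11 member windows (16.2%), against 3.03% of all windows and 5.01% of those of tested genes. For ETS the shares were 27.9%, 10.7% and 18.1%, for ERR 11.8%, 3.97% and 2.66%, and for the E-box 10.3%, 7.43% and 9.90%. The 8 members at 5 CPM or more with the YY1 letters had a median log2 fold change in PC of -0.84 and all 8 were called lower, while 27 of the 43 without them were called lower with a median of -0.29. For NRF1 the medians with and without the letters were -0.35 and -0.36, and for the E-box -0.65 and -0.34. ETS and ERR went the other way, with 7 of 14 members lower at a median of -0.26 with the ETS letters against 28 of 37 at -0.46 without, and 3 of 7 at -0.18 with the ERR letters against 32 of 44 at -0.39 without. Of all 581 tested genes with the YY1 letters 39.1% were lower in PC, and of the 11006 without them 37.3%. Over all tested genes the shares lower with and without the ETS letters were 33.5% and 38.3%, the same direction as in the members. For ERR they were 40.3% and 37.3%, the opposite direction to the members. For NRF1 they were 37.7% and 37.4%, and for the E-box 39.9% and 37.1%. A match is a description of these letters only, and binding was not measured.

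Totals ran from 37773389 to 55567097 counts per library. Of the 7 melanocyte lineage markers, all were detected in every library, with a summed level of 1661 to 1889 CPM in CC, 7076 to 10285 in TC, 3484 to 5090 in PC and 1526 to 1592 in RC. Most of that sum in TC and PC was DCT, at a mean of 407 CPM in CC, 6452 in TC and 2601 in PC. PMEL and SOX10 were also higher in TC and PC than in CC. PMEL was at 70.1 in CC, 615 in TC and 289 in PC, and SOX10 at 659, 1046 and 939. S100B was at 264 in CC, 140 in TC and 272 in PC, and MITF at 362, 321 and 221. MLANA and TYR reached at most 1.94 and 5.93. The fibroblast list of 4 moved with the groups, at a sum of 28.5 to 38.3 CPM in CC, 8.02 to 9.51 in TC, 9.57 to 13.4 in PC and 21.9 to 24.4 in RC, most of it LUM, with DCN at most 0.0746. The epithelial list of 4 reached 2.66 CPM, in PC and mostly KRT14, and the endothelial list of 3 reached 5.23 CPM, nearly all VWF, with CDH5 at 0 in every library and PECAM1 at most 0.0247. Of the immune list of 3, CD3E reached 0.0463 CPM and PTPRC 0.694, while its sum followed CD68 and was 127 to 174 CPM in CC, 719 to 1065 in TC, 633 to 774 in PC and 119 to 132 in RC. The part of these marker changes in the subunit levels was not tested.

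A gene was tested when its mean scaled count reached 10, and 74 of the 86 members were, among 15916 genes. The 12 that were not include genes that ordinary cells use throughout, such as COX5B, NDUFB10, NDUFS3, NDUFA6 and the ATP synthase inhibitor ATP5IF1, and 8 members had at most 3 counts in every library. NDUFS3 ranged over 0.0925 to 0.363 CPM, ATP5IF1 reached at most 0.0262 CPM, and COX5B at most 0.0777. Of the tested members 8 lay under a mean of 5 CPM, among them SDHB, the iron-sulphur subunit of complex II, at 0.231 to 0.610 CPM, and UQCRC2 at 0.1304 to 0.837 CPM. Rows with a numbered suffix held more counts than the plain row for NDUFA6, NDUFS3, UQCRC2 and ATP5IF1. How reads with several matches were treated is not given in the sources used here, and the cause of these low counts was not tested.

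A further member, NDUFS1, the largest iron-sulphur subunit of complex I, varied within groups: its levels were 5.72, 35.1 and 5.71 CPM across CC, 43.7, 29.2 and 33.5 across TC, 13.4, 12.8 and 3.65 across PC and 4.46, 41.2 and 5.05 across RC. The CC, PC and RC libraries overlapped over a wide range and none of its comparisons passed the test. The 65 retained members named from here on leave out NDUFS1 and the 20 members under 5 CPM, a limit chosen after these values were seen.

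The MAPKi-treated cells were compared with control cells to ask what the drugs did to these transcripts at 72 h. Of the 74 tested members 29 were lower and 7 higher in TC, where 34.7% of all tested genes were lower and 33.2% higher, so the share called lower (edgeR quasi-likelihood test, Benjamini-Hochberg adjusted p under 0.05) was close to the background and the share called higher was below it. The median log2 fold change of the members was -0.14, against -0.02 over all tested genes. Beyond 1.5-fold, 1 member was lower and 4 were higher (background 19.3% and 16.1%), and DESeq2 placed 1 lower and 1 higher. The member count higher in TC was 22 without CC replicate 2, in which 62 of the 65 retained members had their highest CC level.

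After 2 drug-free days the pattern was wider. In PC 48 of 74 members were lower than in CC and 6 were higher, where 35.9% of all tested genes were lower and 33.2% higher, and the median log2 fold change was -0.42 against -0.04 over all tested genes. Beyond 1.5-fold, 19 were lower and 2 higher (background 19.9% and 17.2%), and DESeq2 placed 15 and 1 beyond that fold. A group mean lowest in PC was found for 46 of the 65 retained members. Without CC replicate 2 the counts were 43 lower and 10 higher. These levels are shares of all counted RNA, so less of a transcript per cell and fewer cells that hold it cannot be told apart.

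The direct comparison of PC with TC does not use the control libraries for its difference. It placed 35 members lower and 0 higher in PC, where 12.5% of all tested genes were lower and 12.2% higher. The median was -0.31 against 0.00 over all tested genes. At an unadjusted p under 0.05, 45 members were lower and 1 higher, and DESeq2 called 38 lower and 0 higher. Without TC replicate 1, in which 54 of the 65 retained members had their highest TC level, 22 were lower.

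Between 2 and 9 drug-free days the members moved the other way. In RC 38 members were higher than in PC and 6 lower, where 35.7% of all tested genes were higher and 34.2% lower. The members' median was 0.40 against 0.01 over all tested genes. Beyond 1.5-fold, 14 were higher and 2 lower (background 20.2% and 18.5%), and DESeq2 placed 12 and 1 beyond that fold. Leaving out each library in turn gave 37 to 42 members higher at any fold.

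Against the control cells a minority of members were called in RC. The median was -0.11 against 0.00 over all tested genes. In RC 17 members were lower and 3 higher than in CC, where 19.1% of all tested genes were lower and 18.2% higher. The share called lower was near the background and the share called higher was below it. These counts turned on single libraries. Members higher numbered 15 without CC replicate 2, 0 without CC replicate 1, CC replicate 3, RC replicate 1 or RC replicate 2, and 1 without TC replicate 2, PC replicate 2 or RC replicate 3. Members lower numbered 30 without CC replicate 3, 11 without CC replicate 1 and 8 without RC replicate 1 or RC replicate 2. The comparisons of TC, PC and RC with CC share the CC libraries, and the PC libraries enter every comparison that names PC.

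The spread between libraries differed between groups. The median coefficient of variation of the 65 retained members was 15.1% in CC, 8.43% in TC, 5.04% in PC and 2.56% in RC. The summed level of all 86 members, tested or not, was 13156 ± 1728 CPM (SD, n = 3) in CC, 11345 ± 1000.3 in TC, 8534 ± 303 in PC and 11796 ± 39.8 in RC. The PC libraries, at 8614, 8788 and 8199 CPM, lay below the lowest of all other libraries, 10411 CPM in TC replicate 3.

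By summed level, which a few abundant genes dominate, complexes V and II stood lowest in PC relative to CC. In complex V, ATP5F1B made up 1747 ± 131 CPM (SD, n = 3) of the CC sum and ATP5F1A 879.7 ± 123 CPM, and by the median over members complexes II and III were lowest. The summed level of complex V was 49.7% of CC in PC, from 4613 ± 527 CPM to 2291 ± 102, and 70.8% in TC. Complex II stood at 54.0% in PC and 82.4% in TC. Complex III was at 66.6% in PC, complex I at 77.0% and complex IV at 77.2%. In TC, complex I was at 96.7% and complex IV at 101%. The TC libraries overlapped those of CC in complexes I to IV, and in complex V they all lay below the CC libraries. In RC the 5 complexes lay between 82.1% (complex II) and 92.9% (complex I) of CC. Differences between complexes were not tested.

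**Figure D1:**
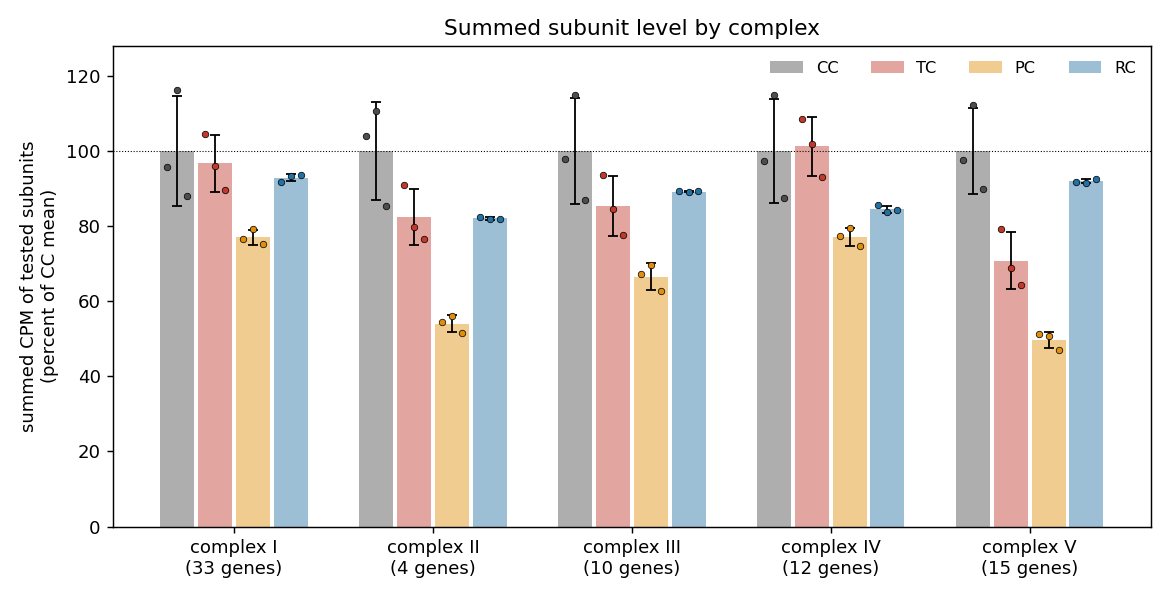
Summed CPM of all members of each complex, tested or not, as a percent of the CC mean. Bars give the mean of 3 libraries, error bars the SD and points the libraries. The axis labels name and count the tested subunits only. PC was lowest in all 5 complexes, with complex V at 49.7% and complex IV at 77.2% of CC, and CC showed the widest spread.

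The counts by complex in PC against CC were 19 lower and 3 higher of 33 in complex I (median -0.33), 3 and 0 of 4 in complex II (-0.73), 6 and 2 of 10 in complex III (-0.72), 9 and 0 of 12 in complex IV (-0.34) and 11 and 1 of 15 in complex V (-0.56). The complex I median was -0.15 without CC replicate 2. In TC against CC the counts were 12 and 4 in complex I (-0.09), 1 and 0 in complex II (-0.38), 4 and 2 in complex III (-0.32), 3 and 0 in complex IV (-0.0048) and 9 and 1 in complex V (-0.37). Of all tested genes 35.9% were lower and 33.2% higher in PC, and 34.7% and 33.2% in TC. The shares lower in TC were near or below that background in complexes I to IV and above it in complex V. Without CC replicate 2 the TC medians of complexes I and IV were 0.06 and 0.16.

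**Figure D2:**
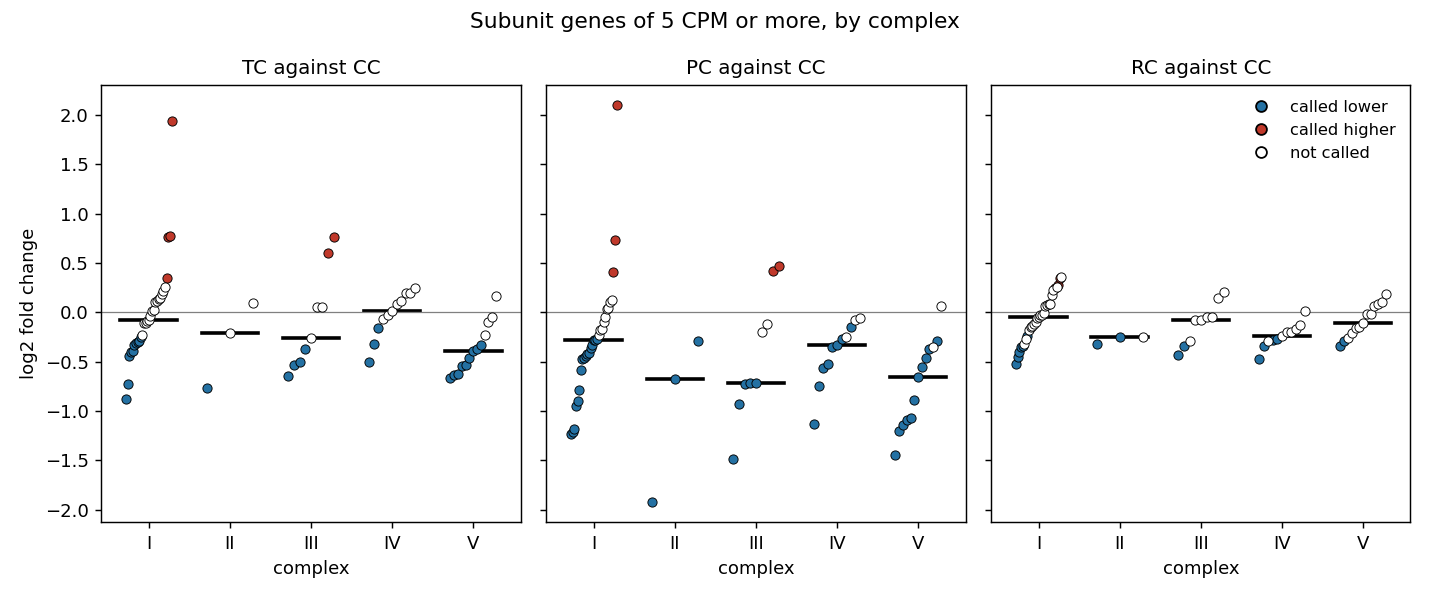
Each point is the log2 fold change of a retained subunit gene (65 in all) in TC, PC or RC against CC, grouped by complex, with a black line at the complex median and fill showing whether the edgeR call was lower, higher or absent. In PC all 12 tested complex IV genes, of which 11 are plotted, lay below 0, and the point above 2 in complex I is NDUFC2.

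Members also divided by role. The core was taken as the subunits with redox centres, the complex II anchors and the F1 and c-ring subunits of ATP synthase, and 17 of the 65 retained members fell in it. In PC all 17 core members were lower than in CC, with a median log2 fold change of -0.95, 10 of them beyond 1.5-fold, and the count was 17 under each of the 19 alternative fits. Over all 20 core members tested, 17 were lower and 1, ATP5F1E, was higher in PC (median -0.85), 12 were lower and 1 higher in TC, and 15 were higher and 1 lower in RC against PC. Of the 46 retained accessory members 25 were lower and 5 higher in PC, with a median of -0.28 and 7 lower beyond 1.5-fold. Of all tested genes 35.9% were lower and 33.2% higher in PC, and 19.9% were lower beyond 1.5-fold. The accessory share beyond that fold was below the background. In TC 12 core members were lower and 0 higher (median -0.39), against 13 and 6 accessory members (median 0.01). With 34.7% of all tested genes lower and 33.2% higher in TC, both accessory shares were below the background. The core median in RC against PC was 0.76, with 15 higher and 0 lower. That of the accessory members was 0.14, with 19 higher and 4 lower, where 35.7% of all tested genes were higher and 34.2% lower. Without CC replicate 2 the accessory counts were 10 lower and 20 higher in TC and 21 lower and 9 higher in PC. The difference between core and accessory members was not tested.

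**Figure D3:**
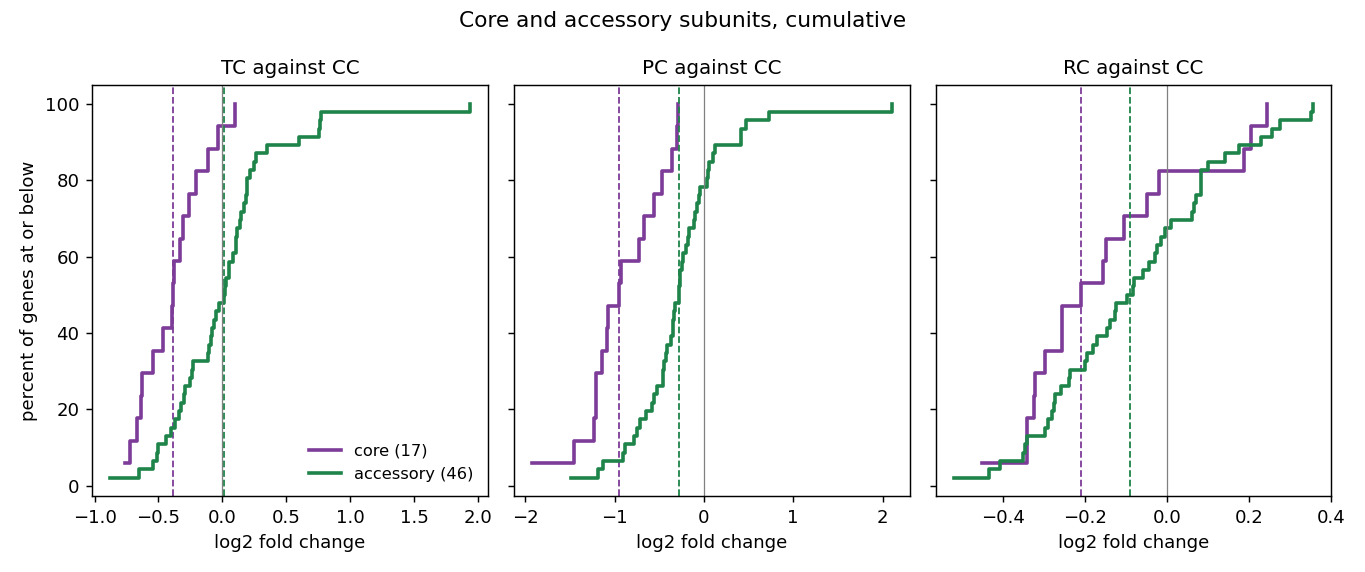
Cumulative share of genes at or below each log2 fold change against CC, for 17 core and 46 accessory subunits, with dashed lines at the medians (the axes differ in range between panels). In PC the core curve lies to the left, with medians of -0.95 and -0.28, and in RC the medians are -0.21 and -0.09.

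Complex I holds its redox chain in the NDUFS and NDUFV core subunits. NDUFV1, which carries the FMN that accepts electrons from NADH (chr11:67605653-67612554 on GRCh38, GENCODE annotation), was at 275, 295 and 241 CPM across CC, 260.5, 218 and 176 across TC, 123, 118 and 104 across PC and 211, 216 and 222 across RC. The PC libraries lay below all others, while TC overlapped CC. In PC its log2 fold change was -1.23 ± 0.13 (SE, adjusted p = 2.6e-06), a 2.35-fold lower level. In TC it was -0.31 ± 0.12 (adjusted p = 0.0414), a call lost under 10 of 19 alternative fits, among them those without CC replicate 1 or 2, TC replicate 2 or 3, PC replicate 2 or any RC replicate.

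NDUFS7, which carries the last iron-sulphur cluster before ubiquinone and whose promoter window is shown above, was at 119, 135 and 101 CPM across CC, 76.5, 70.0 and 68.2 across TC, 54.4, 51.2 and 47.8 across PC and 89.1, 84.3 and 86.5 across RC. No 2 groups overlapped, and the order was CC, RC, TC and PC. NDUFS7 was 2.31-fold lower in PC at -1.21 ± 0.10 (log2 ± SE, adjusted p = 2.71e-07), and lower in RC at -0.45 ± 0.09 (adjusted p = 0.00303). Exons of other annotated genes cover 51.4% of its exon bases, so counts could be split between them. The core members NDUFS8 and NDUFV2 passed the test in PC with smaller changes, -0.47 and -0.36, and not in TC.

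Among the accessory subunits of complex I, NDUFB8, a subunit of the membrane arm, had levels of 121, 152 and 111 CPM across CC, 73.1, 69.0 and 66.5 across TC, 56.4, 57.1 and 55.4 across PC and 116, 116 and 116 across RC. The TC and PC libraries lay below all CC and RC libraries. Its log2 fold change was -0.88 ± 0.10 in TC (adjusted p = 4.71e-06) and -1.18 ± 0.10 in PC (adjusted p = 3.36e-07), and other genes cover 48.5% of its exon bases. NDUFS4, an accessory subunit near the NADH site, was lower in all 3 comparisons with CC, at -0.40, -0.90 and -0.52 on the log2 scale.

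A few accessory subunits went against this direction. NDUFA13, a membrane arm subunit also known as GRIM-19, was at 197, 231 and 178 CPM across CC, 345, 344 and 338 across TC, 259, 280.5 and 267 across PC and 176, 167 and 172 across RC. All TC and PC libraries lay above all CC libraries, and the RC libraries lay just below them. Its log2 fold change was 0.76 ± 0.08 in TC and 0.41 ± 0.08 in PC (adjusted p = 4.06e-06 and 0.000611), and in RC it was -0.24 ± 0.08 (adjusted p = 0.0373), a call lost under 10 of 19 alternatives, among them those without CC replicate 1 or 2, TC replicate 2, PC replicate 3 or any RC replicate. NDUFB2 was at 15.8, 22.8 and 17.3 CPM across CC, 31.6, 33.4 and 30.4 across TC, 27.96, 32.8 and 32.0 across PC and 20.9, 22.8 and 23.1 across RC, and TC and PC lay together above CC and RC. NDUFB2 rose by 0.77 and 0.73 on the log2 scale (adjusted p = 0.000117 and 0.00017). Exons of other annotated genes, BRAF among them, cover 35.9% of its exon bases.

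The steepest rise of any member was that of NDUFC2, a membrane arm subunit, with levels of 1.78, 1.72 and 2.60 CPM across CC, 6.92, 7.92 and 8.58 across TC, 8.97, 8.60 and 8.67 across PC and 2.09, 1.98 and 1.65 across RC. Its log2 fold change was 1.94 ± 0.18 in TC and 2.10 ± 0.18 in PC (adjusted p = 9.85e-07 and 4.73e-07), and RC overlapped CC. Its row is low, and its exons are shared with the read-through gene NDUFC2-KCTD14, so the counting could have moved reads away from it. The steepest fall called in complex I, that of NDUFA11, rested on CC replicate 1 alone: its levels were 11.97, 1.40 and 1.27 CPM across CC, 1.53, 1.46 and 1.60 across TC, 1.78, 1.28 and 1.34 across PC and 0.862, 1.03 and 1.25 across RC. The log2 fold change of -1.67 ± 0.68 in TC and -1.73 ± 0.68 in PC (adjusted p = 0.0454 and 0.0389) became 0.20 and 0.13 without that library. In RC the -2.21 ± 0.69 (adjusted p = 0.0258) became -0.35 and was not called. With CC replicate 1 kept, the calls were also lost in TC without any 1 TC, PC or RC replicate, in PC without any 1 PC replicate or RC replicate 1 or 2, and in RC without any 1 RC replicate.

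NDUFAB1, the mitochondrial acyl carrier protein that is both a complex I subunit and a part of fatty acid synthesis, changed by -0.25 ± 0.09 in TC, -0.28 ± 0.09 in PC and 0.27 ± 0.09 in RC (adjusted p = 0.0299, 0.0183 and 0.0366). These calls were lost under 5, 3 and 8 of 19 alternatives: in TC without CC replicate 2 or TC replicate 2 or 3, in PC without CC replicate 2 or PC replicate 1, and in RC without CC replicate 1 or 3, TC replicate 2, PC replicate 2 or any RC replicate. NDUFS6 was the steepest rise called in RC among complex I members, 0.35 ± 0.11 (adjusted p = 0.0267), lost under 5 of 19 alternatives, among them those without CC replicate 1 or 3 or RC replicate 1 or 2.

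Complex II is also an enzyme of the citric acid cycle. SDHA, its flavoprotein that oxidises succinate (chr5:218303-257082), was at 258, 280.4 and 201 CPM across CC, 167, 134 and 135 across TC, 63.5, 69.3 and 61.5 across PC and 199, 201 and 192 across RC. PC lay far below every other group, and the highest RC library lay just under the lowest CC library. SDHA was 1.70-fold lower in TC and 3.80-fold lower in PC, with log2 fold changes of -0.76 ± 0.12 and -1.93 ± 0.12 (adjusted p = 9.7e-05 and 3.71e-08), the deepest fall of any reliable member in PC. Between TC and PC its change was -1.16 ± 0.12 (log2 fold change, adjusted p = 3.43e-05), the single member lower beyond 1.5-fold there. In RC it was -0.32 ± 0.12 (adjusted p = 0.0481), which was lost under 14 of 19 alternatives, among them those without CC replicate 1 or 2, TC replicate 2 or 3, or any PC or RC replicate. SDHA has pseudogene copies that can share its reads.

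The membrane anchors of complex II changed less. SDHC had 0.10 in TC and -0.30 in PC, and SDHD had -0.21 and -0.67, of which only the PC values passed the test in both genes (adjusted p = 0.00392 and 4.36e-05). SDHB, at under 1 CPM, had -0.78 ± 0.36 in PC (adjusted p = 0.0744).

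In complex III, UQCRC1, a matrix-facing subunit at chr3:48599002-48610976, had levels of 418, 472 and 329 CPM across CC, 288, 247 and 243 across TC, 148, 148 and 139 across PC and 334, 332 and 327 across RC. The PC libraries were within 10 CPM of each other and below all others. The change was -0.65 ± 0.11 in TC and -1.49 ± 0.11 in PC (log2 fold change ± SE, adjusted p = 0.000219 and 1.84e-07), and RC was 1.23-fold lower than CC without passing the test (adjusted p = 0.0529). The electron carriers were lower in PC as well: CYC1, cytochrome c1, at -0.93 ± 0.09 and UQCRFS1, the Rieske iron-sulphur protein, at -0.72 ± 0.12 (adjusted p = 1.08e-06 and 0.000215). CYC1 was also lower in TC and RC, at -0.38 and -0.34, and UQCRFS1 passed the test in neither.

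The small complex III subunits UQCR11 and UQCRQ rose instead. UQCR11 was at 115, 143 and 117 CPM across CC, 225, 210.2 and 201 across TC, 171, 181 and 168 across PC and 124, 119.8 and 120.0 across RC, with TC highest, PC next and RC inside the CC range. Its log2 fold change was 0.76 ± 0.08 in TC and 0.47 ± 0.08 in PC (adjusted p = 4.45e-06 and 0.000249). UQCRQ changed by 0.60 ± 0.12 and 0.42 ± 0.12 (adjusted p = 0.00086 and 0.00929), with PC replicate 1 below the highest CC library. UQCRB, which binds ubiquinone, was the deepest call of complex III in RC, -0.43 ± 0.12 (adjusted p = 0.0133), and was lost without RC replicate 1. The hinge protein UQCRH and its near-identical copy UQCRHL gave close values, -0.51 and -0.54 in TC and -0.72 and -0.72 in PC, and their reads may not be separable.

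In complex IV, COX5A, a matrix-facing subunit, had levels of 241, 279.7 and 214 CPM across CC, 194, 171 and 155 across TC, 116, 114 and 105 across PC and 207, 206 and 210.2 across RC. No 2 groups overlapped. It changed by -0.50 ± 0.10 in TC and -1.13 ± 0.10 in PC (log2 fold change ± SE, adjusted p = 0.000739 and 7.85e-07). COX7C followed with -0.33, -0.75 and -0.35 in TC, PC and RC, all called. COX4I1, the largest nuclear subunit, did not pass in TC (0.12 ± 0.10, adjusted p = 0.313) and was lower in PC (-0.33 ± 0.10, adjusted p = 0.0103). In RC it was at -0.28 ± 0.10 (adjusted p = 0.0447), lost under 12 of 19 alternatives, among them those without CC replicate 1 or 2, TC replicate 2, or any PC or RC replicate.

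Tissue-specific isoforms of complex IV had few or no counts beside the ubiquitous forms. The ubiquitous forms COX4I1, COX6A1 and COX8A lay at 352 to 565 CPM, 285 to 518 CPM and 336 to 470.0 CPM, while the lung form COX4I2, the heart and muscle form COX6A2 and the testis form COX8C had no counts in any library, which allows up to 0.0794 CPM in the shallowest. The muscle form COX7A1 reached at most 0.113 CPM against 204 to 289 CPM for COX7A2, COX7B2 at most 0.419 against 80.6 to 167 CPM for COX7B, and COX6B2 at most 0.768 against 118 to 180.1 CPM for COX6B1. COX6B2 was called lower in PC, -2.59 ± 0.84 (adjusted p = 0.0155), on counts of 0, 5 and 5, and not without CC replicate 2.

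COX7A2L, a relative of COX7A2 that acts in supercomplex assembly, was a further member of that family with many counts in every group, and its levels were 186, 179 and 180.1 CPM across CC, 168, 163 and 158 across TC, 162, 168 and 161 across PC and 123, 133 and 137 across RC. RC lay below all other groups. Its log2 fold change was -0.47 ± 0.06 in RC (adjusted p = 9.15e-05), while -0.16 ± 0.06 in TC and -0.15 ± 0.06 in PC (adjusted p = 0.023 and 0.0293) were lost under 6 and 8 of 19 alternatives, with 0.01 in TC under offsets for GC content and length. The TC call was lost without CC replicate 1 or TC replicate 2 or 3, and the PC call without CC replicate 1, PC replicate 1 or 3, or RC replicate 2. Of the others, COX7A2 was lower in PC and RC at -0.27 and -0.28 (the RC call was lost without RC replicate 1 or 2), COX6A1 and COX7B in PC at -0.35 and -0.56, and COX6B1 and COX8A had -0.25 and -0.08 in PC without passing. NDUFA4, first assigned to complex I and now to complex IV, had 0.20 ± 0.09 in TC and -0.06 ± 0.09 in PC (adjusted p = 0.0691 and 0.583).

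Complex V was led by its catalytic head. ATP5F1B, the beta subunit that forms ATP (chr12:56638175-56645984), was among the highest members per transcript length, at 993 CPM per kb in CC and 364 in PC. Its levels were 1773, 1863 and 1606 CPM across CC, 1258, 1045 and 995 across TC, 664, 652 and 603 across PC and 1581, 1566 and 1582 across RC. Groups did not overlap, and each PC library lay below every other library. It was 1.59-fold lower in TC and 2.73-fold lower in PC, log2 fold changes of -0.67 ± 0.09 and -1.45 ± 0.09 (adjusted p = 2.15e-05 and 2.55e-08). In RC it was -0.15 ± 0.09 and not called (adjusted p = 0.194). The alpha subunit ATP5F1A changed by -0.54 ± 0.11 and -1.21 ± 0.11 in TC and PC (adjusted p = 0.000718 and 8.68e-07), and the gamma subunit ATP5F1C by -0.63 ± 0.09 and -1.14 ± 0.09 (adjusted p = 6.34e-05 and 3.47e-07). The epsilon subunit ATP5F1E was called higher, 1.13 ± 0.27 and 1.19 ± 0.27 (adjusted p = 0.00279 and 0.00189), at no more than 2.15 CPM.

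The c-ring, the rotor that protons turn, is made by 3 genes that encode the same mature protein, and these parted in PC. ATP5MC1 was at 89.4, 115 and 90.1 CPM across CC, 67.1, 59.8 and 62.6 across TC, 46.1, 48.1 and 46.1 across PC and 93.9, 90.4 and 89.6 across RC. ATP5MC3 was at 294, 394 and 293 CPM across CC, 278, 247 and 219 across TC, 160.0, 163 and 138 across PC and 383, 369 and 365 across RC. ATP5MC2 was at 216, 253 and 211 CPM across CC, 180.1, 164 and 148 across TC, 194, 184 and 180.4 across PC and 185, 185 and 185 across RC. In ATP5MC1 and ATP5MC3 PC lay below TC, whereas in ATP5MC2 all PC libraries lay at or above the TC range.

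Against CC, ATP5MC1 changed by -1.07 ± 0.09 in PC, ATP5MC3 by -1.09 ± 0.12 and ATP5MC2 by -0.29 ± 0.08 (log2 fold change ± SE, adjusted p = 5e-07, 5.54e-06 and 0.00838). Between TC and PC the changes were -0.43 ± 0.09, -0.69 ± 0.12 and 0.18 ± 0.08 (adjusted p = 0.00428, 0.00141 and 0.137), so the first pair fell and ATP5MC2 did not pass. ATP5MC3 lay above CC in RC by 0.19 ± 0.12 without passing (adjusted p = 0.237). Differences between these genes were not tested.

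Of the peripheral stalk, ATP5PO and ATP5PB were lower in TC and PC, at -0.54 and -0.89 and at -0.37 and -0.65, and ATP5PD and ATP5PF were called lower in PC and not in TC, at -0.37 and -0.46. ATP5PD was the deepest call of complex V in RC, -0.34 ± 0.09 (adjusted p = 0.0123). The membrane subunits ATP5MG and ATP5MF passed in neither TC nor PC.

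**Figure D4:**
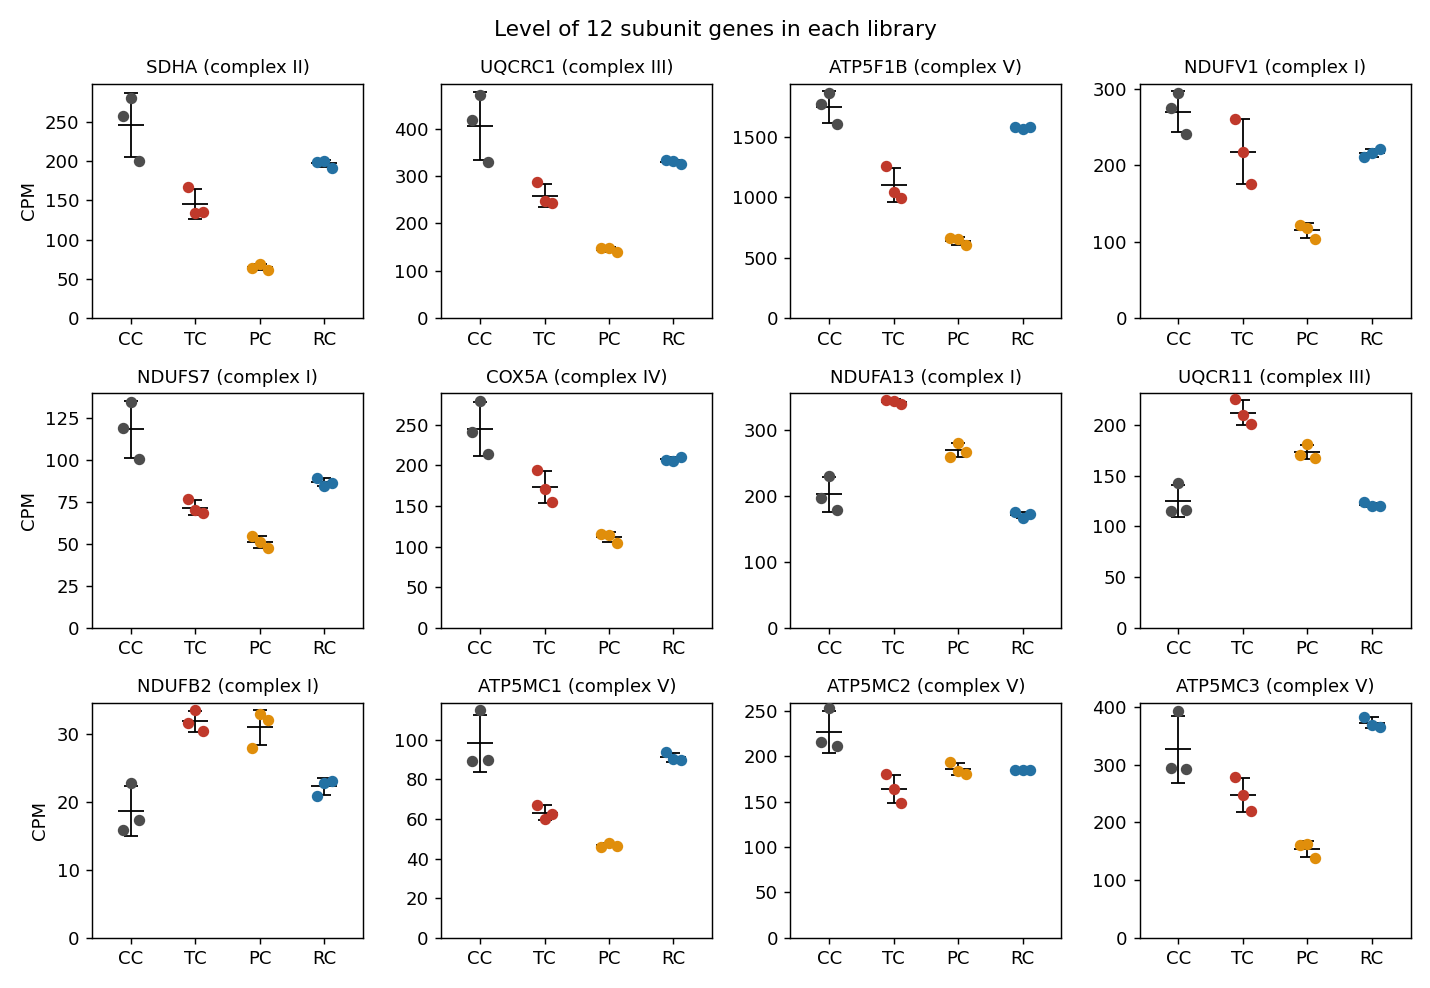
Level of 12 subunit genes in CPM, with a point for each library, a bar for the mean of 3 and error bars for the SD (each panel has its own axis from 0). SDHA, UQCRC1, ATP5F1B, NDUFV1, NDUFS7 and COX5A were lowest in PC, NDUFA13, UQCR11 and NDUFB2 were higher in TC and PC than in CC, and ATP5MC2 was lowest in TC.

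**Figure D5:**
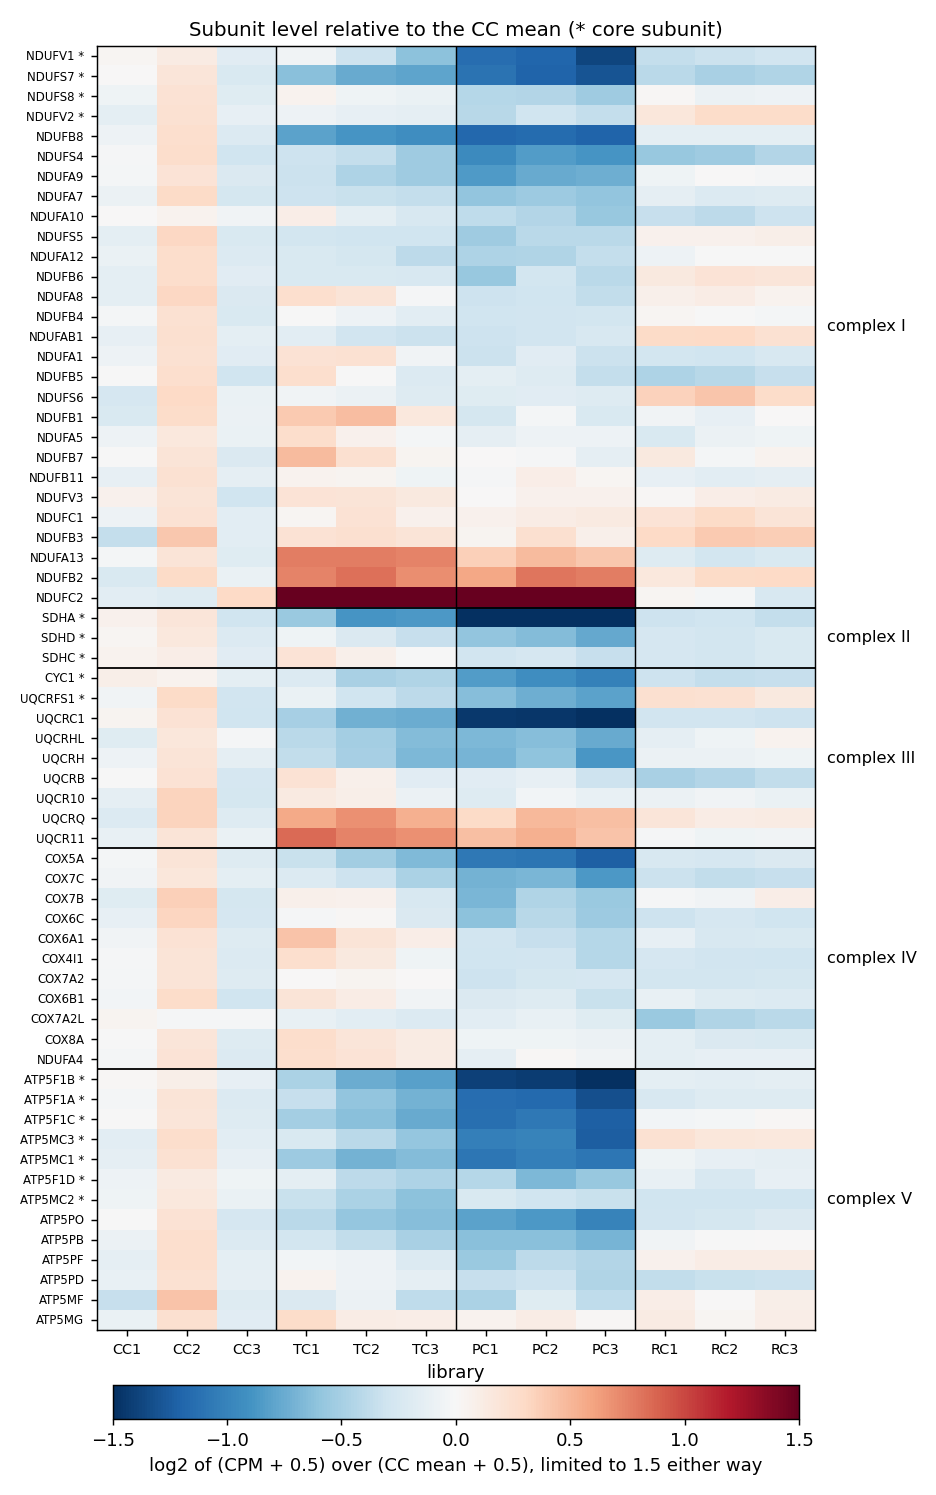
Level of 64 of the 65 retained members in each of 12 libraries as log2 of CPM plus 0.5 over the CC mean plus 0.5, by complex, core subunits first and marked with an asterisk. Blue in the PC columns is deepest in SDHA, UQCRC1, ATP5F1B and NDUFV1, and 62 of the 65 members were highest in CC replicate 2 among the CC libraries.

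Transcript length was set beside these changes as a description. Over the 65 retained members the Spearman correlation of the log2 fold change in PC with transcript length was -0.23, and over 14050 tested genes with a length it was -0.01. With offsets for GC content and length it was -0.13 in the members, which share the same 12 libraries. Among the 10 members under 500 bases 4 were lower in PC, with a median of -0.26, and among the 24 of 1200 bases or more 16 were lower, with a median of -0.51. The median of all genes in those length classes was -0.15 and -0.05.

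Genes around the chain were counted from lists chosen with earlier results in view. The citric acid cycle, which supplies NADH and succinate, had 12 of 13 tested genes lower and 0 higher in PC (median -0.84), 7 lower and 2 higher in TC (median -0.31), and 12 higher and 1 lower in RC against PC. Of all tested genes 35.9% were lower in PC, 34.7% were lower in TC and 35.7% were higher in RC against PC. FH, fumarase, was the deepest call in PC, -1.20 ± 0.11 (adjusted p = 1.23e-06), and IDH3G the steepest rise in TC, 0.75 ± 0.11 (adjusted p = 5.05e-05). Against the same PC background, the assembly factors had 10 lower and 2 higher of 18 for complex I, 7 and 4 of 21 for complex IV, 2 and 1 of 6 for complex III, 1 and 1 of 4 for complex II, and 0 and 1 of 4 for complex V, so that the shares lower for complexes III and IV were near the background. LRPPRC, which steadies mitochondrial messenger RNA, had -1.07 ± 0.10 in TC and -1.63 ± 0.10 in PC (adjusted p = 1.38e-06 and 3.71e-08). COX20, a chaperone of a mitochondrial COX subunit, had 1.01 ± 0.07 and 1.41 ± 0.07 (adjusted p = 1.09e-07 and 6.86e-09).

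Among 11 regulators of respiratory genes, 6 were lower and 1 higher in TC, and 8 were lower and 1 higher in PC, where 34.7% and 35.9% of all tested genes were lower. PPARGC1A, the coactivator PGC-1 alpha that drives mitochondrial gene programmes, was at 78.0, 88.2 and 91.4 CPM across CC, 82.0, 60.6 and 45.1 across TC, 28.6, 23.5 and 14.7 across PC and 86.1, 94.7 and 91.2 across RC. PC lay below all other groups and RC overlapped CC. Its log2 fold change was -0.46 ± 0.22 in TC and did not pass (adjusted p = 0.0842), -1.95 ± 0.23 in PC (adjusted p = 9.85e-06), -1.49 ± 0.23 between TC and PC (adjusted p = 0.000611) and 0.08 ± 0.22 in RC (adjusted p = 0.812). The related PPARGC1B had -1.81 ± 0.18 in TC (adjusted p = 1.89e-06). TFAM, which packages and transcribes mitochondrial DNA, was lower in TC and PC at -0.78 ± 0.11 and -0.73 ± 0.11 (adjusted p = 4.49e-05 and 7.4e-05). NRF1, a transcription factor for these genes, had 0.05 and 0.12 in TC and PC without passing, and was higher in RC at 0.45 ± 0.08 (adjusted p = 0.00107).

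Of the subunits and partners outside the symbol rule 3 of 5 tested were lower in TC and in PC, and 0 higher. The background of genes lower was 34.7% in TC and 35.9% in PC. CYCS, cytochrome c, was not called in TC (0.11 ± 0.10, adjusted p = 0.336) or PC (-0.15 ± 0.10, adjusted p = 0.19) and was higher in RC (0.29 ± 0.10, adjusted p = 0.0357). NDUFA4L2, a hypoxia-induced relative of NDUFA4, was at 0.468 to 4.04 CPM and was lower in RC at -2.36 ± 0.32 (adjusted p = 0.00022).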

How the data were processed

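Read counts per gene for 12 libraries of A375 cells were used as deposited. Per the submitters' processing notes the reads were handled with fastp 0.20.1, HISAT2 2.2.1 and HTSeq 0.13.5 on GRCh38, so the authors counted reads per gene without normalizing; the strand setting and the treatment of multi-mapped reads are not given in the sources used here. Groups were taken from the labels. Columns were matched to samples by name. No 2 libraries of a group agreed within sampling noise (chi-square per degree of freedom 11.0 to 83.2). Each was counted as 1 replicate, although this spread cannot show whether libraries came from separate cultures. Totals of 37773389 to 55567097 counts set the precision, and counting intervals cover counting error only.

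Genes with a mean scaled count of at least 10 (15916 of 44659) were fitted with edgeR 4.0.16 (TMM factors, 0.965 to 1.02, quasi-likelihood test, 2-sided, group as the only term, all 12 libraries, 8 residual degrees of freedom), with Benjamini-Hochberg adjustment over all tested genes and a threshold of 0.05. Calls beyond 1.5-fold used glmTreat. CPM are counts over the TMM-scaled library total, scaled to a common size, and SDs are over 3 libraries. R 4.3.3 was used. DESeq2 1.42.0, its size factors, library totals, a filter of 2 summed counts, a replicate block, fits of only 2 groups, offsets for GC content and length, and leaving out each library were alternatives. On data simulated for TC against CC over 15916 genes, 96 of 100 genes changed 4-fold, 78 of 100 changed 2-fold and 7 of 15716 unchanged genes were called.

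Members and lists were chosen with earlier results of these data known. Members named with values are the redox and catalytic subunits, isoform families, NDUFA4, ATP5IF1, NDUFAB1, NDUFA13, the largest called rise and fall per complex in TC, PC and RC, and members not tested. Values of 1 member that this rule names are not reported here. NDUFB8, NDUFS4, NDUFB2, UQCRQ, COX7C, NDUFS8, NDUFV2, SDHC, SDHD, ATP5F1C, UQCRC2 and the peripheral stalk genes were added after their values were seen.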

Additional observations from a re-analysis of the deposited data

How the results depend on the processing

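Of 200 recomputed counts of members, 176 were within 1.5 times of the reported count, and of 500 recomputed complex medians, 481 were within 1 SD. Members higher in TC numbered 12 with the replicate block, 17 with GC and length offsets, 11 with DESeq2 and 6 to 22 when each library was left out. Members higher in PC than CC numbered 6 to 10 over the left-out libraries. Members higher in RC than CC numbered 5 with the replicate block, with GC and length offsets and with DESeq2, 0 with only those groups fitted, and 0 to 15 over the left-out libraries. Members lower in RC than CC numbered 11 with only those groups fitted and 8 to 30 over the left-out libraries, members lower in PC than TC 22 to 44, and members lower in RC than PC 11 with only those groups fitted. With GC and length offsets the median of complex II was -0.20 in TC, those of complexes I, IV and V in PC against TC were -0.33, -0.55 and -0.44, and those of complexes I, II and V in RC against PC were 0.30, 0.26 and 0.51. With only members of 5 CPM or more and without NDUFS1, a set chosen after seeing the data, the median of complex II in TC was -0.21 and that of complex V in RC against PC was 0.63. The replicate block moved the complex I median in RC against PC to 0.28. Over the left-out libraries the medians ran from -0.10 to 0.16 for complex IV in TC, -0.42 to -0.15 for complex I in PC, -0.88 to -0.59 for complex II in PC, and, in RC against PC, 0.27 to 0.39 for complex I, 0.26 to 0.56 for complex II and 0.56 to 0.64 for complex III. Among 35 named members, 106 results were called, and of their 2014 recomputed values 144 lost the call and 3 reversed. Of the recomputed values of results that were not called, 77 gained a call. The reversals were COX7A2L in TC, to 0.012 with GC and length offsets, and NDUFA11, to 0.20 in TC and 0.13 in PC without CC replicate 1, with ranges over the left-out libraries of -2.11 to 0.20 and -2.17 to 0.13. Apart from that library for NDUFA11, the cause was not tested. Libraries with the same number were not treated as pairs. Of 18 such pairs 2 had a correlation of deviations over 0.1 (range -0.05 to 0.20). Both joined TC and PC, at 0.20 for replicate 1 and 0.18 for replicate 3. TC replicate 1 with PC replicate 3 gave -0.17, and TC replicate 3 with PC replicate 1 gave -0.16. These values do not exclude a pairing of TC with PC. With the replicate block 41 members were lower in PC than TC and 0 higher. With 3 libraries per group and counts near 0 in their rows, 12 members could not be assessed. The cause of these low counts was not tested.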
